A study of Mus musculus with 2 samples.

Results

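The motile cilia programme described here is a set of 38 mouse genes that encode regulators of motile ciliogenesis and parts of the ciliary axoneme, followed in the forebrain at embryonic day 15.5. The genes were taken by symbol from the table of 43346 mouse genes, and all 38 were found. The choice was made with results of these libraries in view, so the levels and the ratios between libraries below are a description and were given no test. Total RNA longer than 200 nucleotides was sequenced from 2 pools of B6NCrl forebrains of mixed sex, 78 embryos in replicate 1 and 62 in replicate 2. Spike-in transcripts were added to the 10 ng of RNA behind each library, and the labels name no allele or treatment. There was 1 group, so the data give a level for each gene and a comparison of the pools.

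Motile cilia beat through dynein motors that slide the microtubule doublets of the axoneme against each other. Outer and inner dynein arms, radial spokes, a central pair apparatus and a nexin link give the beat its force and shape. In the mouse forebrain, epithelial cells of the choroid plexus carry tufts of cilia before birth, and the ependymal cells that line the ventricles become multiciliated mostly after birth. Primary cilia, which radial glia and neurons carry singly, share the intraflagellar transport machinery and lack the dynein arms.

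RefSeq promoter windows, which run from 250 bases before a start site to 50 after it, were matched for 34 of the 38 members (42 windows, GRCm38.p6, the mm10 assembly). Foxj1, Rsph1, Rsph4a and Tppp3 had no entry. The windows below show what stood at the start sites of the 3 members highest in TPM among those matched (Rsph9, Rfx3 and Ccdc40) and of 4 further members that held a binding pattern of RFX factors. Capitals mark motif matches, and each is written 5′ to 3′ on the strand of its gene: Rsph9 chr17:46144151-46144450 (minus), Rfx3 chr19:28011117-28011416 (minus), Ccdc40 chr11:119228322-119228621 (plus), Cfap126 chr1:171122795-171123094 (plus), Pifo chr3:106001448-106001747 (minus), Zmynd10 chr9:107547054-107547353 (plus) and Rfx2 chr17:56830959-56831258 (minus).
Rsph9: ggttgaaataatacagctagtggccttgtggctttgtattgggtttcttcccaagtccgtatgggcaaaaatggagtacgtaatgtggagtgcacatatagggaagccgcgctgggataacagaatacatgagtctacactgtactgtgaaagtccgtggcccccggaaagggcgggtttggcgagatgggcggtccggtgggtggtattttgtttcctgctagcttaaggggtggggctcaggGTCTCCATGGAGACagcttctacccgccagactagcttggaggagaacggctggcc
Rfx3: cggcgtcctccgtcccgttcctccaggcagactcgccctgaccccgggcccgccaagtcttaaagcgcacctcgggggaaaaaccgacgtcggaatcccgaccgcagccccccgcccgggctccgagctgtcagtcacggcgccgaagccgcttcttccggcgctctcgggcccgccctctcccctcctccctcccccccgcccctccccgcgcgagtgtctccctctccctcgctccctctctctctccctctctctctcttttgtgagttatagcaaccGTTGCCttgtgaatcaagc
Ccdc40: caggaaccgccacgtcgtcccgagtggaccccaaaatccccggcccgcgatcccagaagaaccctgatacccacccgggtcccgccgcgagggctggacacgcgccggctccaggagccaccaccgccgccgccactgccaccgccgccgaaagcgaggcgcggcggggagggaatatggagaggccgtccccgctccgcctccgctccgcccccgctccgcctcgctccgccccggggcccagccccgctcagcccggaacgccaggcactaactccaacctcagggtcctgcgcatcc
Cfap126: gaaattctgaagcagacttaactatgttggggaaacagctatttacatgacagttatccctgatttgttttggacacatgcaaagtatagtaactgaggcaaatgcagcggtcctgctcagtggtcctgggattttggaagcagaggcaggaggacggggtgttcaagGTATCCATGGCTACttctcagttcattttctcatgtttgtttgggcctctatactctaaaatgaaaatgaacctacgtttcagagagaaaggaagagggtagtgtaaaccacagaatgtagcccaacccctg
Pifo: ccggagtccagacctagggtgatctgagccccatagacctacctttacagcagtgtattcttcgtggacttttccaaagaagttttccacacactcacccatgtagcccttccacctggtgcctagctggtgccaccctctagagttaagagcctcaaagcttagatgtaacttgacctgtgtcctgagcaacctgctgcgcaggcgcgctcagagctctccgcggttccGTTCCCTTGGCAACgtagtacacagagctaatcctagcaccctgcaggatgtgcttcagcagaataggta
Zmynd10: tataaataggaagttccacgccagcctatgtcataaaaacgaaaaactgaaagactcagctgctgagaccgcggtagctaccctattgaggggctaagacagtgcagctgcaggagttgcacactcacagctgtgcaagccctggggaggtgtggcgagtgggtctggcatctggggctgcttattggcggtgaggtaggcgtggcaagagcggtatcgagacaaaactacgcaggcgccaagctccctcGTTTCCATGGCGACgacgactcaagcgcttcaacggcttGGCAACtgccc
Rfx2: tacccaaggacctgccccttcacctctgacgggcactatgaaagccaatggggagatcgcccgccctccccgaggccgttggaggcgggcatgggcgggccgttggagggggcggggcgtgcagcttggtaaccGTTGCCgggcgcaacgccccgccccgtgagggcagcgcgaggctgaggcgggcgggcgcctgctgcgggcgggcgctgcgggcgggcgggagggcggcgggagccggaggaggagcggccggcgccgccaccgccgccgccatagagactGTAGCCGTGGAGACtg

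The X-box is the DNA element bound by RFX factors, and it was searched as GTNNCC, 2 further bases and GGNNAC, a pattern that reads the same on both strands. It occurred in 6 of 42 member windows (14.3%) and in 618 of 32851 RefSeq windows of the same length (1.88%). By gene, 6 of 34 members (17.6%) and 583 of 27025 genes (2.16%) held it. Positions are counted from 0 at the first base of the start site, with upstream bases negative. In Rsph9 the match GTCTCCATGGAGAC ran from -6 to 7, across the start. In Pifo the match GTTCCCTTGGCAAC ran from -20 to -7, and in Zmynd10 the match GTTTCCATGGCGAC ran from 0 to 13. Cfap126 held GTATCCATGGCTAC from -82 to -69, Tekt4 held GTGTCCTGGGAAAC from -160 to -147 and Rfx2 held GTAGCCGTGGAGAC from 34 to 47. For Cfap126 and Pifo the match lay in the window farthest into the gene, at an internal start site, and their other windows held none.

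The single X-box arm GTTGCC, searched on both strands, occurred in 19 of 42 member windows (45.2%) and in 4111 of all windows (12.5%). It was found at 18 of 34 members, among them Rfx3, Mcidas, Hydin, Dnah10, Drc1 and Tekt1. In Pifo it overlapped the X-box pattern, since GGCAAC is the same arm on the other strand. The forkhead motif GTAAACA, also searched on both strands, occurred in 1 member window, that of Ak7 (2.38%), against 1199 of all windows (3.65%). A match describes the letters of the window, and these libraries hold no measurement of binding.

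The motile cilia genes were expressed at low levels in this tissue, with a few abundant members. Levels are TPM, a gene's share of the transcripts in a library corrected for length. The median member stood at 1.94 TPM, while the median protein-coding gene stood at 4.76. At 1 TPM or more in both libraries were 22 of 38 members (57.9%), beside 34.4% of all genes and 60.6% of protein-coding genes. Another 6 members reached 1 TPM in replicate 1 alone (Dnah1, Spag16, Spef2, Ccdc113, Tekt4 and Ak7), none did so in replicate 2 alone, and 10 were under 1 TPM in both. Every member had reads, with the fewest (31 summed over both libraries) at Dnah12. The 5 members at 10 TPM or more in both libraries were Tppp3, Rsph9, Rfx3, Ccdc40 and Tekt2. The 4 highest held 54.3% of the summed member TPM in replicate 1 and 58.9% in replicate 2.

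**Figure D1:**
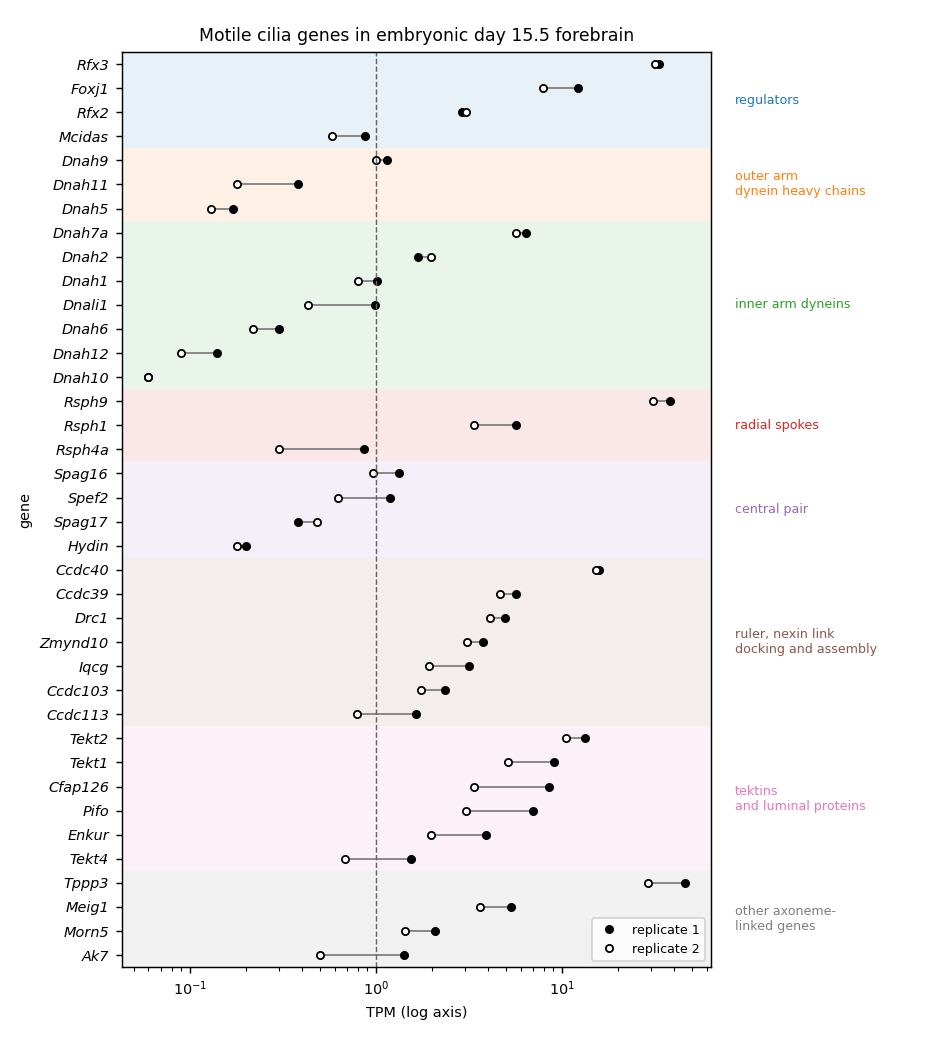
TPM of each of the 38 members in replicate 1 (filled) and replicate 2 (open), on a log axis, grouped by role, with a dashed line at 1 TPM. Tppp3, Rsph9 and Rfx3 lie farthest right in both libraries, and Dnah10 lies farthest left at 0.06 TPM in each.

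The label of the tissue was set against its markers. All 9 telencephalon regulators, all 10 neuronal genes and all 9 radial glia genes listed were at 1 TPM or more in both libraries. So were all 7 erythroid, 8 microglial, 7 endothelial and 7 meningeal genes listed. This bar therefore shows that the forebrain genes were present, but it does not single out the tissue. Expected counts, the estimated reads per gene, summed to 38720511 and 35103430. Over genes with 10 or more summed reads, the coefficient of variation between the pools beyond counting error was estimated as 0.0638. That is a single value shared by all these genes, and it does not describe the spread of single members.

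Among the regulators, Rfx3 was high and even, Foxj1 was intermediate and uneven, and Mcidas was near the limit of detection used. Rfx3, an RFX factor that also acts on genes of primary cilia, stood at 33.3 TPM in replicate 1 and 31.8 in replicate 2 (32.6 ± 1.05, SD, n = 2). Foxj1, the forkhead factor that drives motile cilia genes (ENSMUSG00000034227.7; chromosome 11, 116330704 to 116335399, minus strand, mm10), stood at 12.2 and 7.87 TPM. Rfx2, a close relative of Rfx3, stood at 2.92 and 3.05 TPM, and Mcidas, which starts the multiciliation programme through E2f factors, at 0.870 and 0.580. In reads, Foxj1 was 1.53-fold higher in replicate 1, a log2 ratio of 0.61 with a 95% interval of 0.44 to 0.79. The intervals of Rfx2 (-0.37 to 0.19), Rfx3 (-0.01 to 0.13) and Mcidas (-0.13 to 1.31) spanned equal levels.

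These log2 ratios compare reads in replicate 1 with reads in replicate 2 after scaling for library size, with 0.5 reads added to each, and their intervals cover counting error only. Reads from a bulk tissue cannot tell fewer cells of a type from less RNA per cell. Across the whole programme, 35 of 38 members were higher in replicate 1 and 3 were lower, where 50.0% of the 19165 genes with 10 or more reads were higher. Over 1.5-fold higher in replicate 1 were 17 members, beside 6.25% of all genes, and 0 members were over 1.5-fold lower, beside 5.09%. Among protein-coding genes with 20 to 2000 summed reads, a range that held 37 members and all 17, 51.6% were higher, 7.0% were over 1.5-fold higher and 3.94% over 1.5-fold lower. Among all protein-coding genes with 10 or more reads, 4.59% were over 1.5-fold higher. The interval lay above equal levels for 22 members (12.7% of all genes), spanned them for 16 and lay below them for 0 (13.0%).

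The median log2 ratio of the members was 0.53, or 1.45-fold, and that of all genes was 0.00. The summed member reads were 10925 and 8001, a log2 ratio of 0.31 (interval 0.27 to 0.35), and Rfx3 alone held 3603 and 3138 of them. Scaling by the spike-ins in place of the genes moved every log2 ratio by -0.20. Under that scaling Rfx3, Hydin and Ccdc40 turned below 0, joining Rfx2, Dnah10 and Spag17, and 12 members were over 1.5-fold higher.

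**Figure D2:**
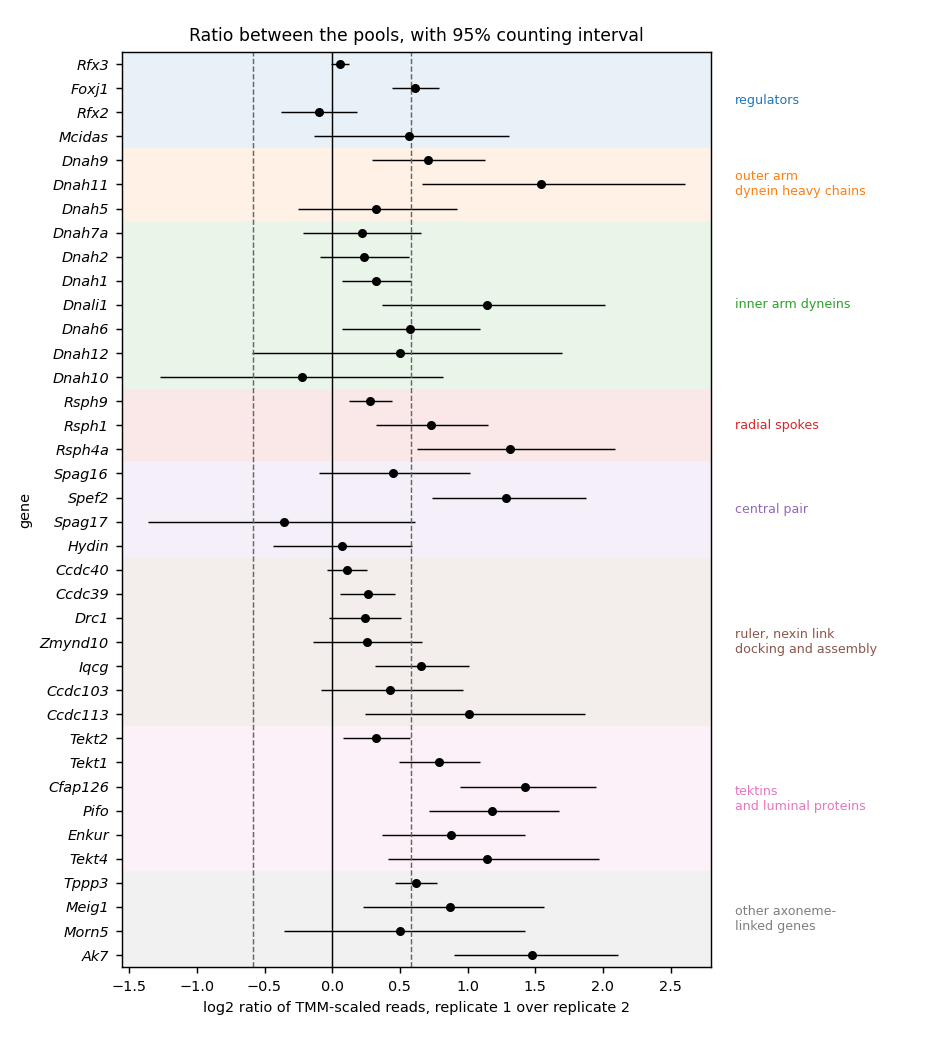
Log2 ratio of scaled reads, replicate 1 over replicate 2, for each member (points) with its 95% counting interval (lines), grouped by role, with dashed lines at 1.5-fold. The points of 35 members lie right of 0, and the longest intervals belong to members with few reads such as Dnah11, Dnah10 and Dnah12.

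**Figure D3:**
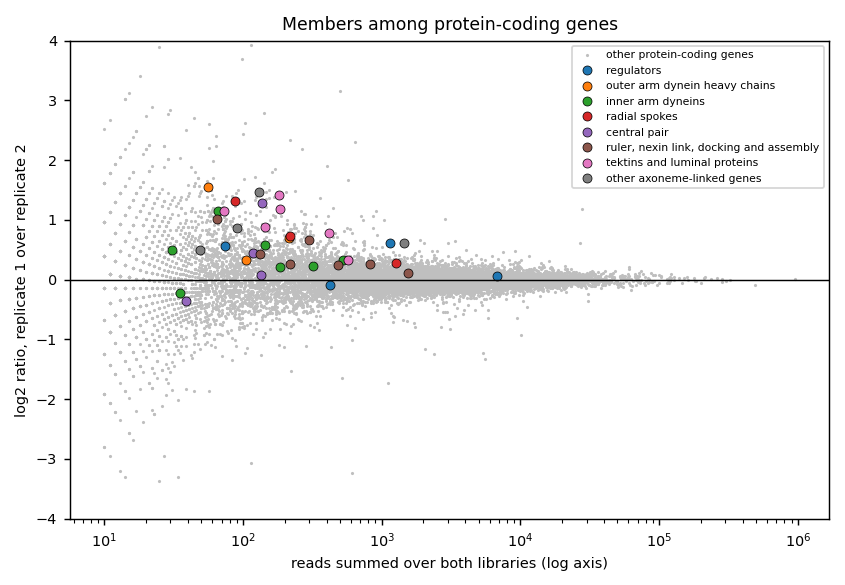
Log2 ratio between the libraries against reads summed over both (log axis) for members, coloured by role, and for the other protein-coding genes (grey). Members span 31 to 6741 reads and 35 of them lie above 0, and 39 other genes lie outside the plotted range.

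Outer arm dynein heavy chains, motors encoded by very long messages, had the lowest median level of the 8 classes, 0.280 TPM. Of these, Dnah9 stood at 1.15 and 1.00 TPM, Dnah11 at 0.380 and 0.180 and Dnah5 at 0.170 and 0.130. All were higher in replicate 1, which held 241 of their reads against 133 in replicate 2. The log2 ratio was 0.70 for Dnah9 (0.29 to 1.13) and 1.55 for Dnah11 (0.66 to 2.60), while that of Dnah5 was 0.33 (-0.25 to 0.92). In deposited TPM the log2 ratio of Dnah9 was 0.20, which is within 1.5-fold. Dnah9 and Dnah11 are outer arm motors that occupy different parts along the length of a cilium. Dnah11 had 42.9 and 13.3 reads, so its ratio is loosely bounded.

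Inner arm dyneins ranged from 0.06 to 6.05 TPM in mean level. Dnah1 was at 1.02 and 0.800 TPM, Dnah6 at 0.300 and 0.220, Dnah12 at 0.140 and 0.0900, and Dnah10 at 0.06 in both. Dnali1, a light chain of the inner arms, was at 0.990 and 0.430 TPM, a log2 ratio of 1.14 (0.37 to 2.02). It was the only one of the 7 inner arm members over 1.5-fold between libraries. The intervals of Dnah1 (0.07 to 0.58) and Dnah6 (0.08 to 1.09) also lay above equal levels. Dnah2 changed direction with the measure, at 1.68 and 1.97 TPM but with 182 and 140 reads, since the estimated transcripts differed in length between libraries.

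The level of Dnah7a, 6.44 and 5.67 TPM, came almost wholly from a short transcript. A 732-base transcript, annotated as processed and not coding, held 99.6% of the gene's TPM with 94.9 and 77.0 reads. The coding transcript, of 12245 bases, had 8.77 and 4.04 reads, or 0.03 and 0.02 TPM. Its relatives Dnah7b (1.15 and 1.37 TPM) and Dnah7c (0.12 and 0.1) are close copies, and how reads were divided among the copies is uncertain.

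Of the radial spoke genes, which encode the spoke heads that reach toward the central pair, Rsph9 was among the most abundant members. It stood at 37.95 and 30.86 TPM (34.4 ± 5.01), with a log2 ratio of 0.28 (0.12 to 0.45). Rsph1 was at 5.66 and 3.36 TPM and Rsph4a at 0.860 and 0.300, so that these parts of 1 structure differed widely in message level. Both were over 1.5-fold higher in replicate 1, by log2 ratios of 0.73 (0.32 to 1.15) and 1.32 (0.63 to 2.09).

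No central pair member reached 1 TPM in both libraries. Spag16, a central pair protein, was at 1.34 and 0.960 TPM, and Spag17, another, at 0.380 and 0.480. Hydin, a large protein of a central pair projection, was at 0.200 and 0.180 TPM, and Spef2 at 1.19 and 0.630. Spef2 was 2.43-fold higher in replicate 1 (log2 ratio 1.28, 0.74 to 1.88), whereas the intervals of Spag16, Spag17 and Hydin spanned equal levels.

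All 7 genes of the axonemal ruler, nexin link, docking and assembly were higher in replicate 1, with a median log2 ratio of 0.26. Ccdc40 was at 15.8 and 15.2 TPM and Ccdc39 at 5.67 and 4.65. Their proteins form the ruler that spaces inner arms and radial spokes. Of the nexin link genes, Drc1 was at 4.93 and 4.11 TPM and Iqcg at 3.16 and 1.93. Zmynd10, a factor of dynein arm assembly in the cytoplasm, was at 3.79 and 3.10 TPM, and Ccdc103, which anchors dynein arms, at 2.36 and 1.75. Ccdc113 was at 1.64 and 0.790 TPM. Ccdc113, with 2.01-fold, and Iqcg, with 1.58-fold, were the members of this class over 1.5-fold, both higher in replicate 1.

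The tektins and luminal proteins, which lie along or inside the doublet microtubules, had the largest median log2 ratio of the 8 classes, 1.01, and 5 of 6 were over 1.5-fold higher in replicate 1. Cfap126 was at 8.57 and 3.35 TPM, a log2 ratio of 1.42 (0.94 to 1.95), and Pifo at 7.02 and 3.05 TPM, a log2 ratio of 1.18 (0.72 to 1.67). Tekt1, a tektin filament protein, was at 9.03 and 5.16 TPM (0.79, 0.50 to 1.09), and Tekt4 at 1.55 and 0.680 (1.15, 0.41 to 1.97). Enkur was at 3.91 and 1.99 TPM (0.88, 0.37 to 1.42). Tekt2 was the most abundant tektin, at 13.3 and 10.5 TPM, and the one member of this class within 1.5-fold. Summed over the class, the log2 ratio of reads was 0.76 (0.60 to 0.91).

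Of the other axoneme-linked genes, Tppp3, a microtubule-binding protein, was the highest member of all at 45.6 and 29.1 TPM (37.4 ± 11.7). Its log2 ratio was 0.62 (0.46 to 0.78), close to that of Foxj1. Ak7, an adenylate kinase of motile cilia, was at 1.41 and 0.5 TPM, a log2 ratio of 1.47 (0.90 to 2.11). Meig1, known for a role in sperm formation, was at 5.33 and 3.61 TPM (0.87, 0.23 to 1.56), and Morn5 at 2.08 and 1.44 (0.50, -0.36 to 1.43).

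Transcript estimates showed that part of several members' level lay in transcripts not annotated as coding. Counting coding transcripts alone, 19 of 38 members reached 1 TPM in both libraries. The transcript counts in this paragraph were not made over all genes, so they do not set the members apart from other genes. For 7 members the leading transcript, the one highest in TPM, was not annotated as coding (Dnah11, Dnah2, Dnah7a, Rsph4a, Spag16, Spag17 and Cfap126). That of Rsph4a had no match in the annotation used. A leader in TPM need not lead in reads. The Dnah11 leader had 3.03 and 0 reads, and the coding transcript 22.1 and 4.09. For Spag17 these were 2.15 and 2.99 against 14.5 and 16.8. For Spag16 they were 15.5 and 9.13 against 42.1 and 26.4 for the longest coding transcript. In Dnah7a the leader also held most of the reads. In Cfap126 the leader, of 741 bases, is annotated as a target of nonsense-mediated decay and stood at 3.35 and 0.940 TPM, with 60% of the gene's TPM in coding transcripts. In Ccdc40 the coding share was 42.3%: a coding transcript of 3524 bases stood at 6.23 and 5.24 TPM, beside a processed transcript of 1662 bases at 5.45 and 4.86. In Dnah9 the coding transcript of 13798 bases had 90.9 and 34.3 reads, and a shorter one of 2671 bases had 36.1 and 27.6. Spag16, Spef2, Meig1, Rsph4a, Dnah11 and Cfap126 had different leading transcripts in the 2 libraries.

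**Figure D4:**
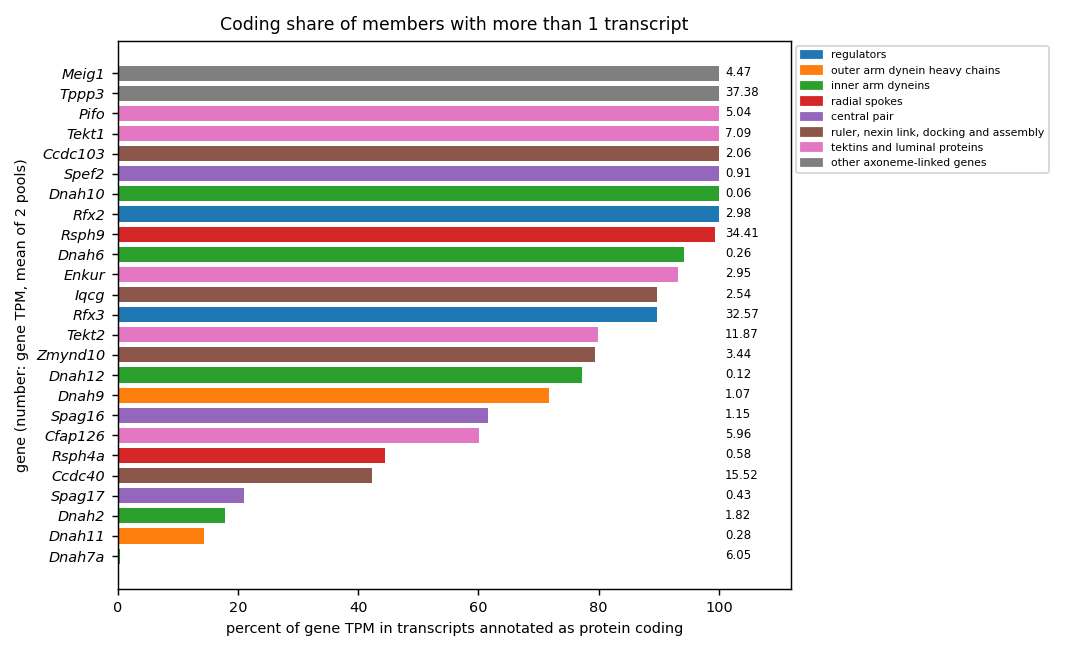
Percent of gene TPM held by transcripts annotated as protein coding, for the members with more than 1 transcript, coloured by role, with the gene's mean TPM written beside each bar. Dnah7a, Dnah11, Dnah2 and Spag17 have the shortest bars.

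Exons of 10 members overlap a gene on the opposite strand, and the share of all genes with such an overlap was not computed. No source used here states whether counting used strand, so reads there cannot be assigned with certainty. The longest overlap was at Iqcg, which shares 48.1% of its exon bases with Lrch3 (32.1 and 33.7 TPM). Ccdc39 shares 16.9% with Ttc14 (11.9 TPM in both) and Spag17 shares 9.66% with Wdr3 (34.3 and 39.7 TPM). The shared stretch was 642 bases for Dnah11 with Cdca7l and 43 bases for Dnali1 with Gnl2.

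Other genes listed with the axoneme, 70 of 74 matched, were also mostly higher in replicate 1. Of 64 with 10 or more reads, 58 were higher in replicate 1, 25 were over 1.5-fold higher, 0 were over 1.5-fold lower, and the median log2 ratio was 0.52. At 1 TPM or more in both libraries were 43. The highest were Cfap20 (102 and 94.8 TPM), Ezr (104 and 92.4), Gas8 (35.7 in both) and Rsph3a (24.0 and 23.6), all within 1.5-fold. Ezr is counted in this list but is not a part of the axoneme. The 25 over 1.5-fold higher were Ccdc114, Armc4, Ttc25, Drc7, Rsph14, Dnajb13, Nme5, Cfap44, Cfap46, Cfap52, Cfap73, Cfap157, Cfap161, Cfap221, Lrriq1, Wdr63, Ttc29, Tctex1d1, Dynlrb2, Kif9, Capsl, Ccdc146, Ccdc170, Fam183b and 1110017D15Rik. Cfap157 was higher in reads (19.2 and 7.21) but lower in TPM (0.5 and 0.870). Cfap44 had 210 and 99 reads but stood at 1.97 and 1.72 TPM, within 1.5-fold. Among the others are the outer arm docking genes Ccdc114 (5.03 and 2.50 TPM), Ttc25 (1.70 and 0.940) and Armc4 (0.370 and 0.0800). Dynlrb2, a dynein light chain, was at 11.2 and 5.86 TPM and Nme5 at 11.6 and 6.03. Sntn and Tmem212 had 0 reads, which allows up to 0.122 and 0.226 TPM in replicate 2.

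Regulators of multiciliation outside the members ranged from 0.110 to 37.8 TPM. Gmnc, which acts upstream of Mcidas, was at 0.180 and 0.0400 TPM. Ccno, which acts in centriole amplification, was at 1.90 and 0.990 TPM and Deup1, a component of the deuterosome, at 1.52 and 1.35. Trp73 was at 4.59 and 4.91 TPM (log2 ratio -0.21, -0.40 to -0.03) and Myb at 2.12 and 2.15. Gmnn (34.1 and 41.6 TPM), E2f4 (32.8 and 37.5), E2f5 (30.1 and 30.7) and Rfx4 (5.93 and 6.96), which act more widely, were more abundant. Of these 11 regulators, 4 were higher in replicate 1 and 7 were lower, with a median log2 ratio of -0.05. Over 1.5-fold higher were 3 (Ccno, Foxn4 and Gmnc), and 1 was over 1.5-fold lower (Cdc20b, lower in reads but at 0.520 and 0.420 TPM).

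Genes that build dynein arms in the cytoplasm and genes of primary cilia were mostly within 1.5-fold between the pools. Of 12 assembly factors with enough reads, 1 was over 1.5-fold higher (Dnaaf1, at 0.450 and 0.160 TPM) and 0 lower, and the median log2 ratio was 0.09. Pih1d1 (79.5 and 79.9 TPM), Cfap298 (44.1 and 42.8), Dnaaf2 (17.7 and 18.1) and Cfap300 (12.9 and 11.4) were the highest, and Dnaaf3 (1.41 and 1.33) was the lowest at 1 TPM in both libraries. Pih1d3 had 0 reads. All 42 primary cilium and intraflagellar transport genes were at 1 TPM or more in both libraries, with a median of 16.9 TPM. None of them was past 1.5-fold in either direction, and their median log2 ratio was 0.01. Kif3a, a motor of intraflagellar transport, was the highest at 221 and 204 TPM, followed by Arl3 (200 and 196), Ift46 (146 and 141) and Ift27 (92.6 and 96.7), with Kif17 (1.14 and 1.31) the lowest.

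Choroid plexus genes differed between the pools in the same direction as the cilia genes. Of 20 genes, 14 were at 1 TPM or more in both libraries, 0 were without reads, 18 were higher in replicate 1, 15 were over 1.5-fold higher and 0 were over 1.5-fold lower. Their summed level was 915 TPM in replicate 1 and 421 in replicate 2, of which Ttr, the thyroid hormone carrier, gave 761 and 331. The median log2 ratio of the list was 0.87. Enpp2 (25.6 and 19.2 TPM) was the one of the 4 highest within 1.5-fold, beside Ttr, Folr1 and Kcne2, and Steap1 (1.59 and 2.30) was the lowest at 1 TPM in both. The 15 over 1.5-fold higher were Ttr, Folr1, Kcne2, Otx2, Sostdc1, Aqp1, Kcnj13, Calml4, Clic6, Car12, Cldn1, Cldn2, Tmem72, Trpv4 and Slc4a5. Cldn2 (1.70 and 0.580 TPM), Clic6 (7.50 and 3.34) and Aqp1 (10.2 and 4.76), an epithelial water channel, were over 2-fold higher in replicate 1. Of 18 roof plate and cortical hem genes, a list that shares Ttr, 5 were over 1.5-fold higher (Ttr, Rspo2, Rspo1, Wnt3a and Msx2) and 1 lower (Lmx1b, at 0.0500 and 0.110 TPM). After Ttr, the highest were Rspo3 (26.7 and 20.5 TPM), Dkk3 (21.5 and 18.5) and Msx1 (17.1 and 11.3), and Bmp6 (1.53 and 1.51) was the lowest at 1 TPM in both. Their summed level was 887 and 431 TPM, of which Ttr again gave 761 and 331. The part of these cell types in the ratios of the cilia genes was not tested.

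The genes of an ependymal list had a median log2 ratio of 0.12. Over 1.5-fold higher in replicate 1 were 4 of 15 (Mia, Calml4, Gm973 and Aqp4), and 0 were over 1.5-fold lower. The summed level of the list was 8678 and 8493 TPM, of which Nnat gave 5860 and 5742, followed by Dbi, Cd24a and Vim. Rarres2 (2.53 and 2.33) was the lowest at 1 TPM in both, and Ccdc153 was at 0.0900 and 0. Calml4 is also in the choroid plexus list, and Vim is also in the radial glia list. Among the telencephalon, neuronal, radial glia, microglial, endothelial and meningeal lists, no gene was past 1.5-fold in either direction, and the list medians lay between -0.12 and 0.04.

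**Figure D5:**
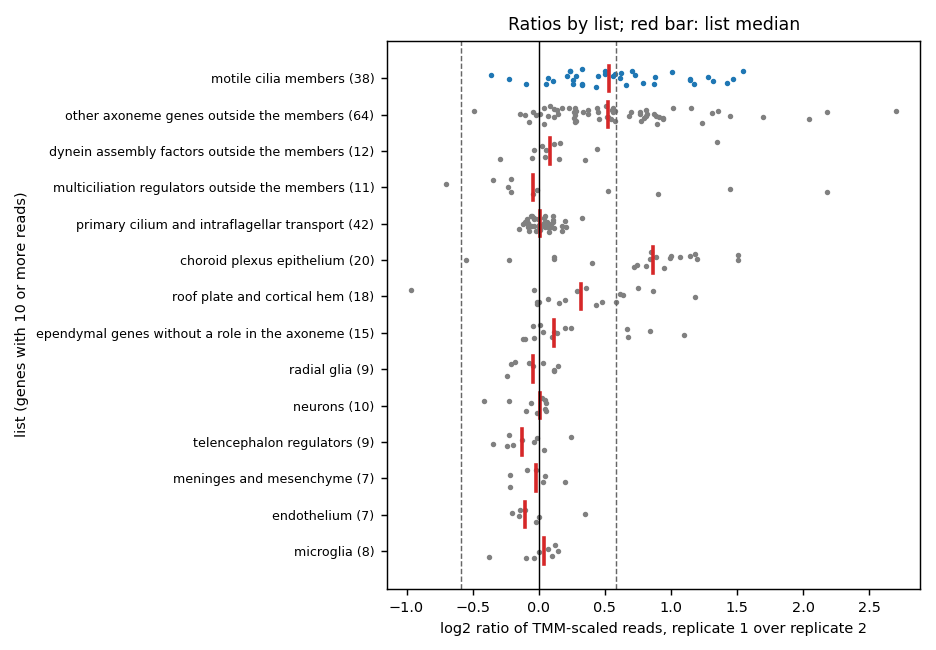
Log2 ratio between the libraries for genes with 10 or more reads (points) in the cilia programme and in other gene lists, with the number of genes in brackets, list medians as red bars and dashed lines at 1.5-fold. The members, the other genes listed with the axoneme and the choroid plexus genes have medians of 0.53, 0.52 and 0.87, and the primary cilium genes one of 0.01.

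Genes known from sperm, mostly of the flagellum but with the chromatin proteins Prm1, Prm2 and Tnp1 among them, were mostly under 1 TPM. Of 20 genes, 2 reached 1 TPM in both libraries, Catsper2 (3.14 and 3.47 TPM) and Tekt5 (2.47 and 1.96). Of 9 with 10 or more reads, 2 were over 1.5-fold higher in replicate 1 and 0 were over 1.5-fold lower. The 2 were Spata18 (27 and 3 reads) and Akap3 (15 and 0), and the median log2 ratio was 0.16. Akap4, Catsper1, Prm2, Tnp1 and Pgk2 had 0 reads, where 3 reads in replicate 1 would have given 0.0457 TPM at Akap4 and 0.379 at Tnp1. Gapdhs was at 0.910 and 0.900 TPM.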

How the data were processed

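The members and the other gene lists were chosen with earlier results of these data known. All members are named; of the axoneme, cilium, choroid plexus, roof plate and ependymal lists the 4 highest, the lowest at 1 TPM in both libraries and those past 1.5-fold are named. Any further name was picked once its values were known, and other lists are given by counts. Per the deposited notes, reads were aligned to the mm10 transcriptome of GENCODE M4. The sources used here name no aligner, quantifier or strand setting. The deposited expected counts are the authors' estimated reads, which need not be whole. The TPM and FPKM values deposited by the authors scale them by effective length. The deposited percent values give a transcript's share of its gene.

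Expected counts were rounded, scaled by TMM factors (edgeR 4.0.16, R 4.3.3) over the 19165 genes with 10 or more summed reads, and compared after adding 0.5 reads. Intervals are exact binomial at 95%. The shared coefficient of variation is the square root of the common dispersion estimated by edgeR. Alternatives used DESeq2 1.42.0 and spike-in scaling. A limit for 0 reads is 3 reads per library. List levels are medians of log2(mean TPM + 0.1). Gene and transcript types were taken from GENCODE M21, which has other gene models on this assembly. Symbols matched 42462 genes (98.0%). Dnai1, Dnai2, Cfap47 and Cfap99 were not analysed here. The ratio step was tested on simulated data.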

Additional observations from a re-analysis of the deposited data

How the results depend on the processing

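The median level of the members on the log2(TPM + 0.1) scale was 1.03. It was 1.55 with 1 added in place of 0.1 and 0.65 with coding transcripts only, an alternative chosen after seeing the data, and 0.95 to 1.21 in single libraries. Members at 1 TPM numbered 22, and 16 to 29 under the other settings, of which 22 to 28 in single libraries. The median log2 ratio of 0.53 was 0.34 with spike-in scaling, 0.43 with 100 or more summed reads and 0.45 with 5 reads added. Of the 17 members over 1.5-fold higher in replicate 1, 9 passed 2-fold, and with 100 or more reads required 11 of 27 passed; no member was over 1.5-fold lower under any setting run. The 7 members with a leading transcript not annotated as coding became 4 without replicate 1 and 7 without replicate 2. Using the first listed window of each gene, chosen after seeing the data, 4 genes held the X-box pattern in place of 6, without Cfap126 and Pifo. Of 217 ratios of single members under alternatives, 210 stayed within their counting error. The other 7 were Foxj1, Rfx3, Rsph9, Ccdc40 and Tppp3 with spike-in scaling, and Dnah9 and Dnah2 in deposited TPM. All settings reused the same reads, so this tally cannot show how well the ratios would repeat. Of 38 members, 31 lay above 0 under every scaling. Dnah2 was at -0.23 in deposited TPM. No paired analysis was possible because there was only 1 group. With 11 members under 100 summed reads, small ratios were not detectable there at this depth.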
